A study of Homo sapiens with 15 samples.

Results

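The kisspeptin system and a small set of other hormone genes were followed on the RT2 Profiler array for tumor metastasis, a plate of quantitative PCR assays read with SYBR Green, in breast cancer cells exposed to macrophage conditioned medium (CM). The members were picked by name, 6 of the 84 target genes of the plate. They are KISS1 and KISS1R (the ligand and the receptor of the kisspeptin system), GNRH1 (the hormone that this system controls), SSTR2 and TSHR (receptors of other hormones) and TRPM1, which is an ion channel and not a hormone receptor. Kisspeptins are peptides cut from the KISS1 precursor, and they activate KISS1R, a receptor coupled to the G proteins Gq/11. In the hypothalamus this pair drives the release of gonadotropin-releasing hormone and so the onset of puberty. In cancer, KISS1 was first described as a suppressor of metastasis in melanoma cells, whereas signaling through KISS1R has been linked to invasion in breast cancer cells that lack the estrogen receptor.

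MDA-MB-231 and MDA-MB-468 are established cell lines of triple-negative breast cancer, that is, without estrogen and progesterone receptors and without HER2 amplification. Cells of either line were left unstimulated or were kept, for 24 h by the labels (the study's text gives a shorter time), in CM of human monocyte-derived macrophages (MDM) which had themselves been primed with supernatant of cancer cells. By the labels, MDA-MB-468 has 4 samples exposed to CM and 4 unstimulated ones, and MDA-MB-231 has 3 and 4. Each line has 3 numbered comparisons of a CM sample with an unstimulated sample, and these are called here by their control (2, 3 or 4).

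A value is a fold change, the ratio of a gene's signal with CM to that without it, divided by the same ratio of ACTB in MDA-MB-231 or of RPLP0 in MDA-MB-468. The lines thus have different references, and differences between them were not tested. A gene was called raised when the geometric mean over the 3 comparisons was over 2 and every comparison was above 1, and lowered when the mean was under 0.5 and every comparison was below 1. SD values are those of the log2 fold changes over the 3 comparisons of a line. Only ratios were used, so how abundant each transcript was in unstimulated cells is unknown. The numbers of the samples do not show that the 3 comparisons are independent. In each line, the comparisons with controls 3 and 4 are both headed with CM sample 3. By the headers, a line thus rests on CM samples 2 and 3 only, and n = 3 counts comparisons. Whether samples came from separate cultures is not stated either, so the SD may be technical.

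KISS1 was raised in both lines, with the larger fold changes in the columns of MDA-MB-468. The headers of these columns name a control of MDA-MB-231. Here and below they are read as CM over unstimulated MDA-MB-468 cells, which is not settled. If the headers hold, these values would also contain differences between the lines that are not due to CM. The KISS1 gene lies at chr1:204190341-204196491 on GRCh38.p14. Because KISS1 and TRPM1 were the members raised in both lines, their promoters are shown, from RefSeq on GRCh38.p14, as 250 bases before to 50 after the start of the gene, 5′ to 3′. For KISS1 this is chr1:204196442-204196741 on the minus strand.
KISS1 promoter: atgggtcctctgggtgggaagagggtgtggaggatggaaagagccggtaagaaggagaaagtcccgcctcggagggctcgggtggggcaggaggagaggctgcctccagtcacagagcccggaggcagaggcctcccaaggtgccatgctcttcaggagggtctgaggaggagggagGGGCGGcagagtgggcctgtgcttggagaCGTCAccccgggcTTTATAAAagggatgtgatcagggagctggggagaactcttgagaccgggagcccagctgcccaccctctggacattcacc
Capitals mark the matches to 6 short motifs searched on both strands: the TATA box (TATAAA), the GC box (GGGCGG), the core of the cAMP response element (TGACG), the whole element (TGACGTCA, which contains the core), the M-box core (CATGTG) and the AP-1 site (TGANTCA). The KISS1 window holds the TATA box 2 times, on opposite strands and overlapping, from bases -31 and -29 relative to the start. It also holds a GC box from base -73 and, on the opposite strand, a cAMP response element core from base -44. Among all 35116 promoters of this length, 11.5% hold the TATA box, 45% the GC box, 24.6% the core, 1.85% the whole element and 7.71% the AP-1 site. A GC box or a core is thus common, and a TATA box less so. These shares count a match anywhere in the window.

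For KISS1 in MDA-MB-231, the fold change was 2.06 with control 2, 1.57 with control 3 and 2.53 with control 4. All comparisons were above 1, but the geometric mean, 2.01 (log2 1.01, SD 0.35, n = 3), was barely past the threshold. It was no longer called relative to GAPDH, to the reverse transcription wells or to the median target gene (a reference added after seeing the data), nor without control 2 or without control 4. In MDA-MB-468 the fold change of KISS1 was 10.1 with control 2, 8.24 with control 3 and 7.75 with control 4. These values were close together and gave a geometric mean of 8.65 (log2 3.11, SD 0.20, n = 3). Ranks within a comparison do not depend on the reference. By rank, KISS1 was number 3, 4 and 2 of the 84 target genes in the MDA-MB-468 comparisons with controls 2, 3 and 4, but number 25, 27 and 24 in the same order in MDA-MB-231.

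KISS1 was the member whose fold changes did not overlap between the lines, with the main references and the above reading of the MDA-MB-468 columns. Its lowest fold change in MDA-MB-468 was above its highest in MDA-MB-231. The same separation, in this direction, was found for 7 of the 84 target genes (8.33%), against 1 of the 6 members. Genes apart in the opposite direction, such as CXCR2 and SYK, are not in this share. For KISS1 the mean log2 fold changes were 2.10 apart, and the separation was present under all 6 other references set by wells (the mean of 5 or 4 housekeeping genes, RPLP0, ACTB or GAPDH for both, and the reverse transcription wells).

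**Figure D1:**
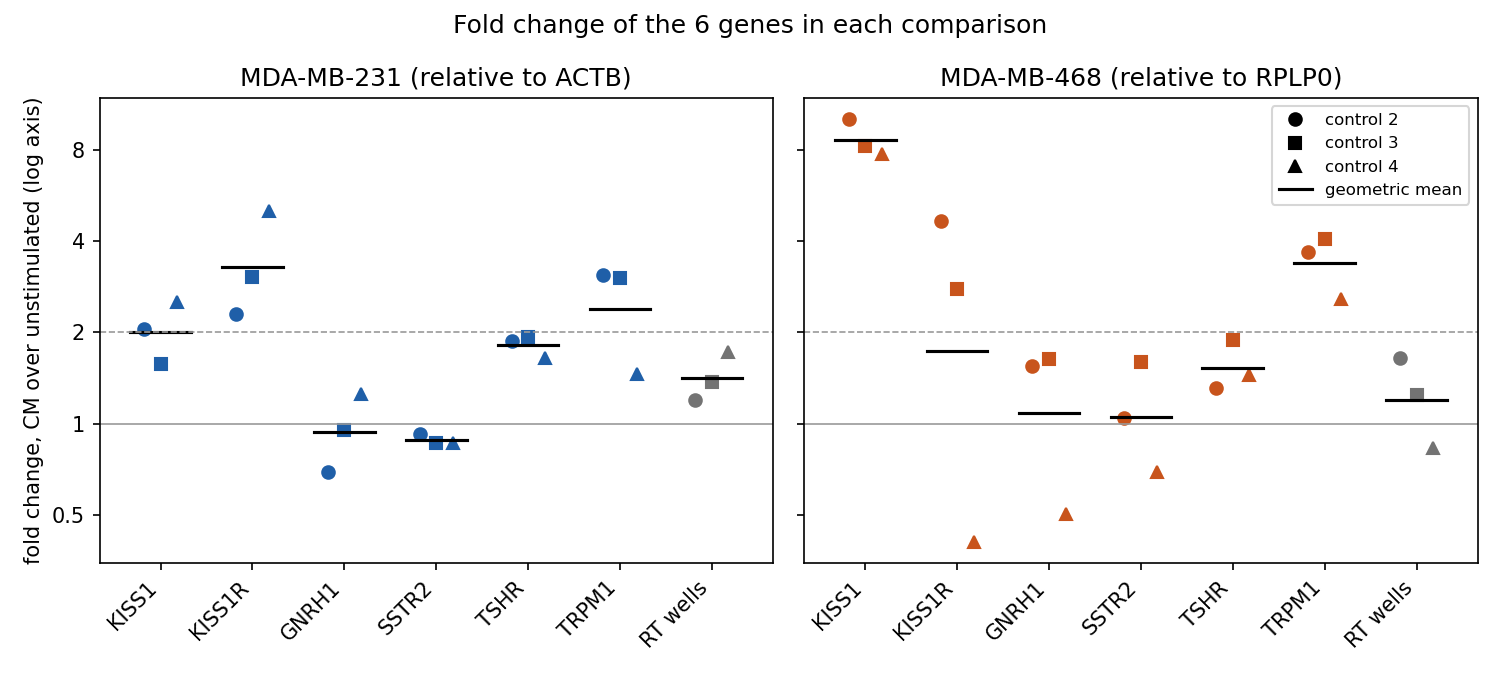
Fold change of the 6 genes with CM over unstimulated cells (log axis) in each of the 3 comparisons, for MDA-MB-231 relative to ACTB on the left and for MDA-MB-468 relative to RPLP0 on the right, with the reverse transcription (RT) control wells in gray. Symbols are comparisons, black bars geometric means, and the dashed line a fold change of 2. KISS1 in MDA-MB-468 lies between 7.75 and 10.1, and KISS1R of the same line spreads from 0.406 to 4.68.

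KISS1R, the receptor of kisspeptin (chr19:917333-921005), was raised in MDA-MB-231. Its fold change there was 2.31 with control 2, 3.06 with control 3 and 5.05 with control 4, over 2 in every comparison. The geometric mean was 3.29 (log2 1.72, SD 0.57, n = 3), and KISS1R was raised in this line under every reference tried. In MDA-MB-468 the fold change of KISS1R was 4.68 and 2.78 with controls 2 and 3 but 0.406 with control 4. The geometric mean of 1.74 (log2 0.80, SD 1.86, n = 3) therefore describes none of the comparisons well, and without control 4 the mean log2 fold change was 1.85 and KISS1R was called. Receptor and ligand can be set against each other within a comparison, where the reference cancels. In MDA-MB-231 the log2 fold change of KISS1 minus that of KISS1R was -0.165, -0.963 and -0.996 with controls 2, 3 and 4, so the receptor had the higher fold change each time. In MDA-MB-468 the difference was 1.11, 1.57 and 4.25, and the ligand had the higher fold change each time.

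GNRH1, the precursor of gonadotropin-releasing hormone, was neither raised nor lowered in either line. With CM, GNRH1 of MDA-MB-231 cells was at 0.694, 0.956 and 1.25 times its control with controls 2, 3 and 4, on both sides of 1. In MDA-MB-468 it was 1.55, 1.64 and 0.504. The mean log2 fold changes, -0.09 (SD 0.43) and 0.12 (SD 0.96), were smaller than the spread over the comparisons, and their sign moved with the reference.

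SSTR2 (chr17:73165010-73176633) encodes a somatostatin receptor coupled to inhibitory G proteins and is the main target of the drug octreotide. Its fold changes in the MDA-MB-231 line were 0.923, 0.865 and 0.861 with controls 2, 3 and 4, with an SD of 0.06, the smallest of the 6 genes in this line. In MDA-MB-468 it was 1.05, 1.59 and 0.690. Averaged on the log2 scale these were -0.18 for MDA-MB-231 and 0.067 for MDA-MB-468, and neither was called. With RPLP0 as the reference, the value of SSTR2 in MDA-MB-231 was 0.021, so its direction is not fixed by these data.

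TSHR (chr14:80955621-81146306) encodes the receptor of thyrotropin, which is coupled to stimulatory G proteins and is best known from thyroid follicular cells. In MDA-MB-231 its fold change was 1.88 with control 2, 1.93 with control 3 and 1.65 with control 4. In MDA-MB-468 the values were 1.31, 1.89 and 1.45. TSHR was thus above 1 in all 6 comparisons, but its geometric means of 1.81 (log2 0.86, SD 0.12, n = 3) and 1.53 (log2 0.61, SD 0.27, n = 3) did not reach the threshold of 2. With a threshold of 1.5 it would be raised in both lines, and with RPLP0 as the reference it was raised in MDA-MB-231 (log2 1.06).

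TRPM1 (melastatin, chr15:31001065-31161160) forms a cation channel of melanocytes and of ON bipolar cells of the retina, and its transcription in melanocytes depends on MITF, a factor that binds M-box sequences. It was raised in both lines. RefSeq promoters matched 4 of the 6 members (KISS1, SSTR2, TSHR and TRPM1), and TRPM1 has 2 windows, chr15:31161111-31161410 and chr15:31101676-31101975, both on the minus strand. The first of them follows.
TRPM1 promoter: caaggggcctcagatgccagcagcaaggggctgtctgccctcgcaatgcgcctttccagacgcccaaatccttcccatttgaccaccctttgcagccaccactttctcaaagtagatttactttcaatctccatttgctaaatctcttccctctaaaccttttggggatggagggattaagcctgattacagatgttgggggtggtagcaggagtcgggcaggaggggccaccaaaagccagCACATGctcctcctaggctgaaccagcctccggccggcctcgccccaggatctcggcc
The capitals are an M-box core, read on the opposite strand from base -8. The other TRPM1 window also holds this core, from base -56, while 11.1% of all promoters of this length do. None of the other 5 motifs is in either TRPM1 window, and no motif of the 6 is in that of TSHR. The window of SSTR2, chr17:73164760-73165059 on the plus strand, holds a GC box from base -77 and a cAMP response element core from base -58. A match is only a match of letters, and which start of TRPM1 these cells use was not measured.

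TRPM1 had a fold change in MDA-MB-231 of 3.10 with control 2, 3.02 with control 3 and 1.46 with control 4. The geometric mean was 2.39 (log2 1.26, SD 0.62, n = 3), and TRPM1 was not called in this line with the reverse transcription wells as the reference (log2 0.76). In MDA-MB-468 the fold change was 3.69, 4.06 and 2.58, with a geometric mean of 3.38 (log2 1.76, SD 0.35, n = 3), over 2 in every comparison. The ranges of the lines overlapped with these references. Of the 6 other references set by wells, they were apart under 1 only, ACTB for both lines. There the lowest log2 fold change in MDA-MB-468 was 1.67 and the highest in MDA-MB-231 1.63.

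Of the 6 members, 3 (KISS1, KISS1R and TRPM1) were raised in MDA-MB-231, where 26 of the 84 target genes (31%) were. In MDA-MB-468, 2 members (KISS1 and TRPM1) were raised, beside 23 of 84 target genes (27.4%). No member was lowered in either line, and 3 of the 84 target genes (3.57%) were lowered in each. Raised in both lines were 2 members, against 21 of 84 target genes (25%). The log2 fold changes of the members had a median of 0.93 for MDA-MB-231 and 0.71 for MDA-MB-468, beside 0.13 and -0.16 for all 84 target genes. With so few members, these shares say little beyond the single genes.

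**Figure D2:**
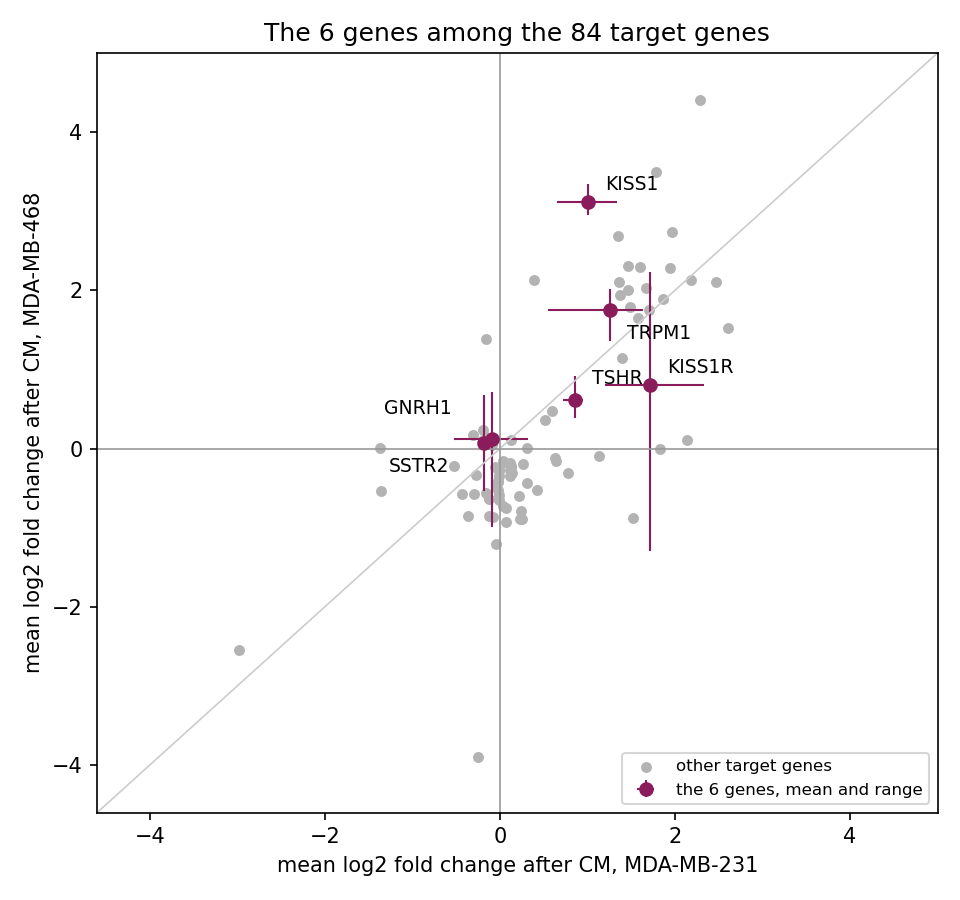
Mean log2 fold change after CM in MDA-MB-231 (x axis) and MDA-MB-468 (y axis) of the 84 target genes, with the 6 members in purple and lines for their range over the 3 comparisons; the gray diagonal marks equal values. KISS1 is well above the diagonal at 1.01 and 3.11, and GNRH1 and SSTR2 lie near 0 in both lines.

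By size of the mean fold change, the order in MDA-MB-231 was KISS1R, TRPM1, KISS1, TSHR, GNRH1 and SSTR2. The ranges of neighbors overlapped except between TSHR, whose lowest log2 fold change was 0.72, and GNRH1, whose highest was 0.33. In MDA-MB-468 the order was KISS1, TRPM1, KISS1R, TSHR, GNRH1 and SSTR2. There, KISS1 stood apart from TRPM1, its lowest log2 fold change being 2.95 and the highest of TRPM1 2.02, while the other neighbors overlapped.

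Lists of genes with related roles, which include some of the members themselves, give the setting. Of the 5 G protein-coupled receptors on the plate (CXCR2, CXCR4, KISS1R, SSTR2 and TSHR), CXCR2 and KISS1R were raised in MDA-MB-231 and none in MDA-MB-468 (1, KISS1R, without control 4), beside 31% and 27.4% of all target genes. The receptors had a median log2 fold change of 0.86, which is the value of the member TSHR itself, and 0.11. CXCR4, the receptor of the chemokine CXCL12, had a mean of 0.31 and -0.44 and was not called. In a list of 5 hormones and secreted growth factors (GNRH1, KISS1, IGF1, HGF and VEGFA), all but GNRH1 were raised in each line, against the same 31% and 27.4%. KISS1 in MDA-MB-231 was raised only just. The median log2 fold change was 1.34 for MDA-MB-231 and 3.11 for MDA-MB-468, the latter being the value of KISS1 itself. The list leaves out TGFB1, a secreted growth factor called in neither line (log2 0.12 and -0.18). With it, added after seeing the data, 4 of 6 were raised in each line and the medians were 1.18 and 2.90.

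KISS1 was also set beside other metastasis suppressors. Among a list of 9 such genes (BRMS1, CD82, HTATIP2, KISS1, MTSS1, NME1, NME4, TIMP2 and TIMP3), KISS1 was the 1 raised in each line, where 31% and 27.4% of all target genes were. The 9 genes had a median log2 fold change of -0.04 for MDA-MB-231 and -0.57 for MDA-MB-468, and CD82, a tetraspanin, was lowered in MDA-MB-468 (log2 -1.21, SD 0.72, n = 3), where 3.57% of all target genes were. Such calls depended on the comparisons used: without control 4 CD82 was not called (log2 -0.79), without control 2 MTSS1 was lowered as well (log2 -1.11), and without control 3 both MTSS1 (log2 -1.15) and TIMP3 (log2 -1.07) were. Kisspeptin has been described to reduce the output of gelatinases and signaling by CXCL12 through CXCR4 in other cells. Of MMP2, MMP9, CXCL12 and CXCR4, the first 3 were raised in both lines, as were 25% of all target genes, MMP9 with a log2 fold change of 2.18 (SD 0.24) and 2.13 (SD 0.60), and CXCL12 with 1.94 (SD 0.05) and 2.28 (SD 0.91). A relation between these genes and KISS1 was not tested.

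The target genes with the most similar pattern were found by the root mean square difference of log2 fold changes over all 6 comparisons. Nearest to KISS1 were VEGFA at 0.56 and CDH6 at 0.75. For KISS1R the nearest gene, NR4A3, was no closer than 0.81, so no gene followed it closely. TRPM1 had a close neighbor in RORB at 0.23, and then ITGB3 and FLT4 at 0.57 each. GNRH1 was closest to IL18 (0.16), SSTR2 to TCF20 (0.20) and TSHR to TIMP4 (0.64).

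The reverse transcription (RT) control wells are designed to give product from an RNA added with the reverse transcription kit. Here all 3 wells of a column had the same ratio in the 6 comparisons, as wells set to 1 ceiling would, and CDKN2A, which MDA-MB-231 lacks, had their ratio in 2 of the 3 comparisons of that line and lay 0.84 above it with control 3. If they were at the ceiling, which was not checked on cycles, a gene not amplified in either sample would have their ratio, and a gene's log2 ratio over them is its raw difference in cycles. None of the 6 members matched them (within 0.1%) in any comparison, so each was amplified in at least 1 sample of every pair if that reading of the wells is right. Whether it was amplified in both samples is not known, and a ratio against a well at the ceiling is only a bound.

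KISS1 lay above the RT wells in all 6 comparisons. The distance was 0.79, 0.19 and 0.56 on the log2 scale in MDA-MB-231 with controls 2, 3 and 4, less than 1 cycle each time, but 2.62, 2.73 and 3.22 in MDA-MB-468. KISS1R was 0.95, 1.15 and 1.55 above them in MDA-MB-231. In MDA-MB-468 it was 1.51 and 1.17 above them with controls 2 and 3, and at -1.03 with control 4.

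TRPM1 was above the RT wells by 1.17, 1.71 and 1.63 in MDA-MB-468 and in the other line by 1.38 and 1.13 with controls 2 and 3, but at -0.24 with control 4 of MDA-MB-231. TSHR stayed within 1 cycle of the RT wells in every comparison, from -0.06 to 0.66 in MDA-MB-231 and from -0.33 to 0.80 in MDA-MB-468. It was above them in 2 of 3 comparisons of each line. GNRH1 and SSTR2 were below the RT wells in all comparisons of MDA-MB-231 and in 2 of 3 of MDA-MB-468.

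**Figure D3:**
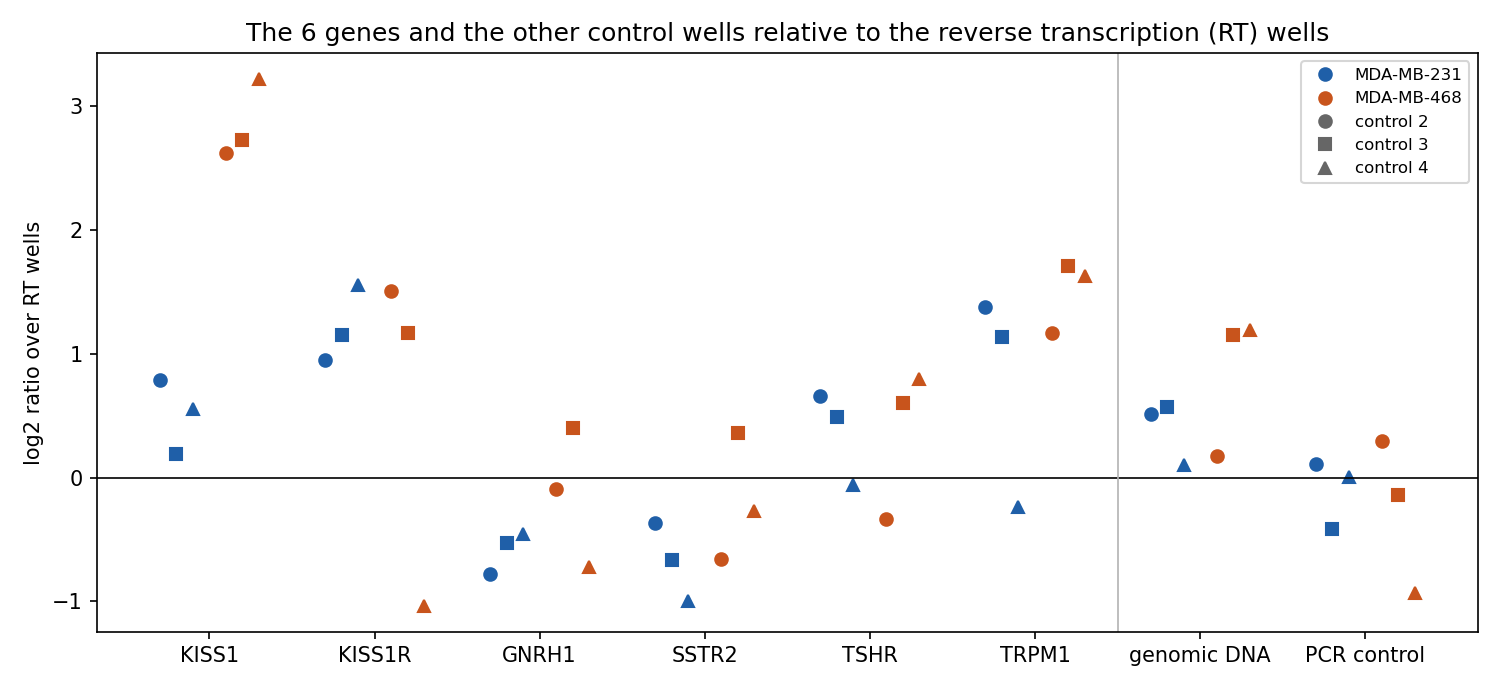
Log2 ratio of the 6 genes over the RT control wells (y axis; 0 is the ratio of the RT wells themselves) in each comparison (MDA-MB-231 in blue, MDA-MB-468 in orange), with the genomic DNA well and the mean of the 3 PCR control wells on the right. KISS1 in MDA-MB-468 lies from 2.62 to 3.22, whereas TSHR, GNRH1 and SSTR2 stay within 1 of the wells.

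The comparison of MDA-MB-468 with control 4 differed from the others over the whole plate. The 3 positive PCR control wells, which hold a DNA template of their own, had a mean log2 fold change of -1.20 there, against 1.01 and 0.17 with controls 2 and 3. These values include the change of RPLP0. Relative to the RT wells, where RPLP0 cancels, the mean was -0.93, against 0.29 and -0.14. The median of the 84 target genes was -0.92, against 0.17 and 0.35, and 25 of them were above 1, against 53 and 59. It is the comparison in which KISS1R, GNRH1 and SSTR2 were below 1. Relative to the median of the 84 target genes in this comparison, chosen as a reference after seeing the data, KISS1R was at -0.38, GNRH1 at -0.07 and SSTR2 at 0.39 on the log2 scale. KISS1 and TRPM1 were at 3.88 and 2.29. The part of the plate-wide shift in the low value of KISS1R was not tested.

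Markers of other cells and of the lines were read beside the members. Of 12 genes that macrophages express (IL1B, IL18, CCL7, CST7, CTSK, CTSL, MMP9, PLAUR, SYK, TGFB1, CXCR4 and HGF), MDA-MB-468 had 4 raised and MDA-MB-231 had 5 (of all target genes, 27.4% and 31% were), with a median log2 fold change of -0.02 and 0.53, the highest being IL1B (2.61) in MDA-MB-231 and HGF (3.50) in MDA-MB-468. IGF1, which macrophages also make, was not in this list and had the highest value of the plate in MDA-MB-468 (4.40) and number 3 in MDA-MB-231 (2.29). With it, added after seeing the data, 5 and 6 of 13 were raised, with medians of 0.11 and 0.64. Their levels are unknown from ratios, and the part of macrophage RNA carried over with CM in the values of the 6 genes was not tested. The genomic DNA well, which reports DNA left in the RNA, lay from 0.10 to 0.57 above the RT wells in MDA-MB-231 and from 0.18 to 1.19 in MDA-MB-468. Over that well, KISS1 in MDA-MB-468 lay higher by 1.58 to 2.45 on the log2 scale, KISS1R in MDA-MB-231 by 0.43 to 1.45 and TRPM1 in MDA-MB-468 by 0.44 to 0.99. In the other line, each of these genes was at or below the well in at least 1 comparison, for example KISS1R in MDA-MB-468 at 0.015 with control 3 and -2.23 with control 4. TSHR was below it in 5 of 6 comparisons, GNRH1 and SSTR2 in all 6, and the part of DNA in the values was not tested.

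In the deposited ratios, the columns of MDA-MB-468 are headed with a control of MDA-MB-231. CDKN2A, which is deleted in MDA-MB-231 and present in MDA-MB-468, had a log2 fold change of -0.31 (SD 0.61, n = 3) in these columns, and RB1, which is deleted in MDA-MB-468, one of -3.90 (SD 0.45, n = 3), against -0.25 (SD 0.21, n = 3) in MDA-MB-231. RB1 lay from -4.26 to -4.06 relative to the RT wells in the MDA-MB-468 columns, whereas a gene absent from both samples would be at 0 if these wells were at the ceiling. On that condition the value of RB1 is not one expected from CM over unstimulated cells of this line, while that of CDKN2A is not one expected with a control of MDA-MB-231. SMAD4, also deleted in MDA-MB-468, was at -2.54 there and at -2.98 in MDA-MB-231. Relative to the RT wells, SMAD4 lay from -3.53 to -2.01 in the MDA-MB-468 columns and from -4.61 to -2.63 in MDA-MB-231. On the same condition, its value in the MDA-MB-468 columns is not one expected from CM over unstimulated cells of this line either. The values of KISS1 and of the other 5 members in MDA-MB-468 are read here as CM over unstimulated cells of that line, which neither the headers nor these genes settle.

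**Figure D4:**
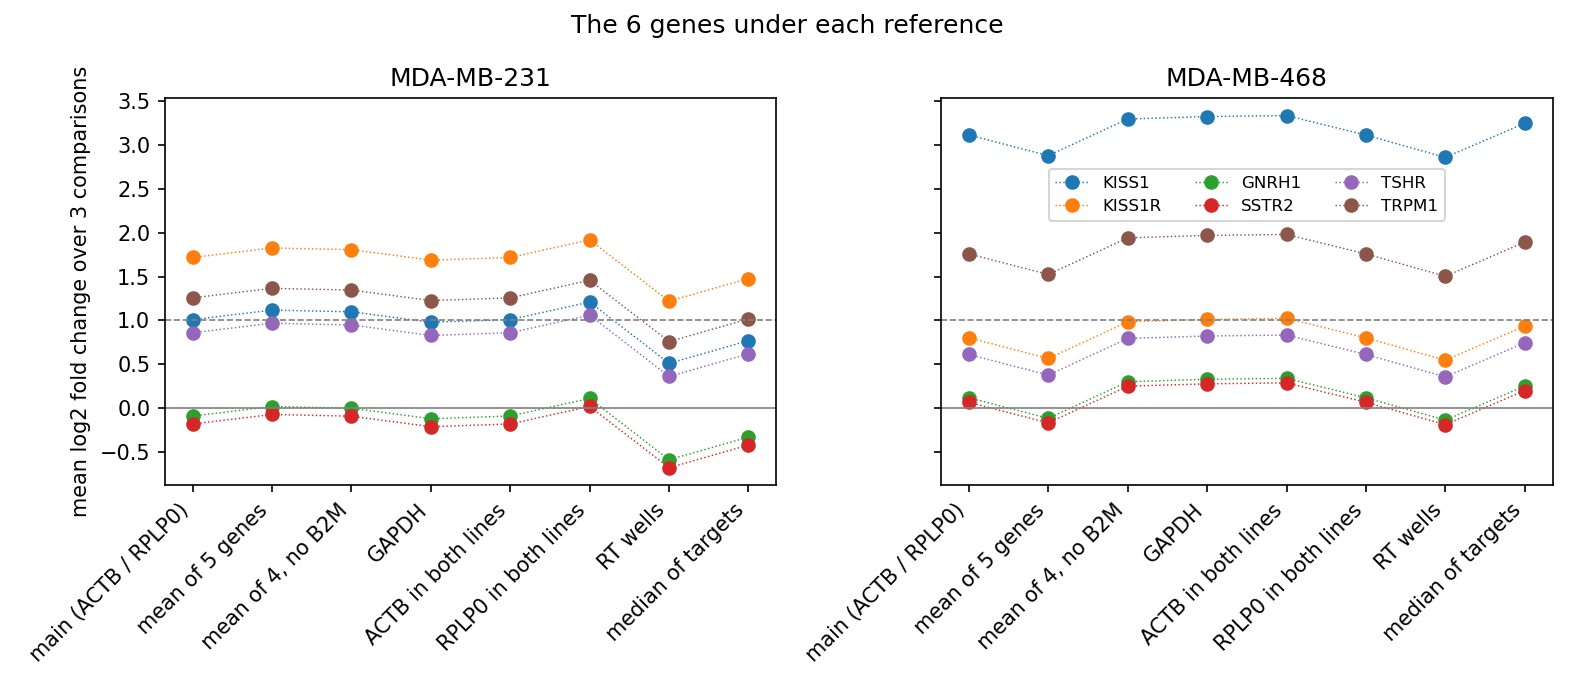
Mean log2 fold change of the 6 genes over the 3 comparisons (y axis) under the main reference and 7 others (x axis) for MDA-MB-231 on the left and for MDA-MB-468 on the right. The dashed line is the threshold of a 2-fold change. A reference shifts all genes of a comparison alike, so their order stays, and with the RT wells KISS1 falls to 0.51 and TRPM1 to 0.76 in MDA-MB-231.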

How the data were processed

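RNA of both lines was measured in 15 labelled samples. The deposited tables have 96 wells per array, while the study's methods give a larger plate with other numbers of genes. The authors analyzed threshold cycles with GeneGlobe and deposited linear ratios (2 to the power of minus delta delta Ct) of CM over unstimulated samples, scaled to 5 housekeeping genes. The cycle taken as not detected is not given in the sources used here. The 6 numbered ratio columns were used. A further deposited table of fold changes holds the authors' own summary per line and was not used. The 16 columns of threshold cycles match no sample label and were not used, so the planned limma fit (a linear model across all target genes) was not run, and depth per gene is unknown. Wells were named through the study's plate layout. Each ratio was divided by that of ACTB (MDA-MB-231) or RPLP0 (MDA-MB-468), and log2 values were averaged. No p-value was computed: an exact 2-sided sign-flip permutation over 3 comparisons cannot go below 0.25. The code of the call rule was tested on simulated data of a single spread, which does not measure its error rate here. The 6 members, the gene lists and the call rule were chosen with earlier results of these data known. Genes named are the 6 members, these lists, the control wells and, for each member, its nearest genes by root mean square difference (up to 3, not all of them reported here). Alternatives were other references, each comparison left out, and other thresholds. Scripts ran in Python 3.11.15 (pandas 2.3.3 and numpy 2.4.6), and figures were drawn with matplotlib 3.10.9.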

Additional observations from a re-analysis of the deposited data

How the results depend on the processing

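Under all 7 other references and with each comparison left out, the mean log2 fold changes of KISS1, KISS1R, TSHR and TRPM1 stayed above 0 in both lines. Of the 72 gene values under references other than the main one, 14 moved by more than 1 SD between comparisons. Leaving out 1 of 3 comparisons cannot move a mean that far, but KISS1R in MDA-MB-468 went from 0.80 to 1.85 without control 4 and was then called. With the reverse transcription wells as the reference, where differences in cDNA input are no longer corrected, values in MDA-MB-231 were 0.51 for KISS1, 0.36 for TSHR, -0.59 for GNRH1 and -0.68 for SSTR2, and KISS1 in MDA-MB-468 was 2.86. KISS1 in MDA-MB-468 was 2.88 with the mean of the 5 housekeeping genes, in which B2M rose, 3.32 with GAPDH and 3.33 with ACTB. SSTR2 in MDA-MB-231 was -0.071 with that mean, -0.091 without B2M in it, and 0.021 with RPLP0, and TSHR in MDA-MB-231 was 1.06 with RPLP0. With the median of the 84 target genes, chosen after seeing the data, SSTR2 in MDA-MB-231 was -0.42 and TSHR 0.62. These shifts follow from the references themselves.

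Members raised in MDA-MB-231 numbered 3, against 1 (KISS1R) with the reverse transcription wells or with a fold change over 2 required in every comparison. They numbered 4, with TSHR added, with RPLP0 for both lines or with a threshold of 1.5. Members raised in both lines numbered 2, against 1 with GAPDH, 1 with the median of the 84 target genes, 0 with the reverse transcription wells and 0 with the stricter rule. With the threshold of 1.5 they numbered 3. With each comparison left out they numbered from 1, without control 2 or 4 of MDA-MB-231, to 3, without control 4 of MDA-MB-468. The median of all 84 target genes lay from 0.10 to 0.33 in MDA-MB-231 and from -0.40 to 0.06 in MDA-MB-468 under the housekeeping references. No paired analysis was possible beyond the ratios, which are themselves differences within the pairs of samples that the authors joined, because a fit with and without the replicate number as a block needs threshold cycles of single samples. The ratios were not tested, since their independence is not known. The ceilings for undetected wells were not run either. Without cycles, how many molecules stand behind each ratio is unknown.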
